A study of Mus musculus with 24 samples.

Results

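Liver was set against spleen in RNA sequencing of tissues from mice bearing human SENCR on a bacterial artificial chromosome, going by sample titles that read SENCR-BAC. The library names of the same samples begin with SR-KI, which the labels do not explain. SENCR is a gene for a long non-coding RNA and overlaps FLI1 on the opposite strand. The comparison used 6 of the 24 libraries, taken by their labels: 3 of liver and 3 of spleen. The labels name no other treatment and no time. The transgene was labelled in every animal, so both tissues carried it, and no animals without it were labelled. Age, sex and strain were not given in the sources used here, nor was it said which liver and spleen libraries came from the same mouse. Values were FPKM, read numbers divided by gene length and library depth, for 7493 genes with human symbols, because reads of mouse RNA were placed on the human genome. A mouse gene's FPKM therefore depends on how much of its sequence matches the human gene, and levels were compared between the tissues within a gene, not between genes.

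As background, the liver is built mainly of hepatocytes, which make most plasma proteins, detoxify ammonia through the urea cycle, break down amino acids, and synthesise and export lipids and glucose. The spleen filters blood and is a lymphoid organ. Its white pulp holds B and T cells, and its red pulp holds macrophages and, in mice, erythroid precursors that divide. Hepatocyte genes are driven by factors such as HNF1, HNF4, FOXA and C/EBP proteins, and B cells depend on PAX5 and EBF1, while many genes of dividing cells have CCAAT boxes, bound by NF-Y, in their promoters.

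Promoters of 4 genes described below are shown, 2 that were far higher in liver and 2 of dividing cells that were higher in spleen, to give the sequence context of the differences. They are the 250 bases before the annotated start in RefSeq (mouse, GRCm38.p6), written 5′ to 3′ on the strand of the gene, and they were chosen after the motif search because they hold matches. Hao1 lies at chr2:134554353-134554602 on the minus strand and Fga at chr3:83025903-83026152 on the plus strand. Top2a lies at chr11:99024190-99024439 on the minus strand and Hmgb2 at chr8:57511593-57511842 on the plus strand. Capitals mark the HNF4 motif CAAAGTNCA in Hao1, the HNF1 motif GTTAATNAT and the C/EBP motif TTGCNNAAT in Fga, and the NF-Y motif CCAAT in Top2a and Hmgb2, each searched on both strands.
Hao1: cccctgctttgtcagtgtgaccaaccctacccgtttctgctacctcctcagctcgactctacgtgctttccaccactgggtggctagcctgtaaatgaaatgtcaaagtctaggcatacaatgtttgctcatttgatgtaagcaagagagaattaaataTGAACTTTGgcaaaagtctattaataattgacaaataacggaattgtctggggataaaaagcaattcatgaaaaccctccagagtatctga
Fga: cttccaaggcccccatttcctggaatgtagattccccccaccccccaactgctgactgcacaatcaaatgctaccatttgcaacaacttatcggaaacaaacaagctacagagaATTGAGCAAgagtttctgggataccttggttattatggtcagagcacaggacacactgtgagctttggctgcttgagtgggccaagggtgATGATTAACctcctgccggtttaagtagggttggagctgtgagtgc
Top2a: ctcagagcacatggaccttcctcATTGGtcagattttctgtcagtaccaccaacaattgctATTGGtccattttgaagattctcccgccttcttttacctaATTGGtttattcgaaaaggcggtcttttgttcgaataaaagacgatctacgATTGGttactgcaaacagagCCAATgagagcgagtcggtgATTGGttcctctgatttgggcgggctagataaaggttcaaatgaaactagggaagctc
Hmgb2: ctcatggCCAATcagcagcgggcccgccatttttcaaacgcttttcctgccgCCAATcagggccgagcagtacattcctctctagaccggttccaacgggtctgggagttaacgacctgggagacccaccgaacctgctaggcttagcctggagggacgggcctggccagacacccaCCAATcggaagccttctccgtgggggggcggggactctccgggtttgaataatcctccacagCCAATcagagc

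The HNF4 match of Hao1 spans 91 to 83 bases before the start. In Fga the HNF1 match spans 46 to 38 and the C/EBP match 136 to 128 bases before the start. Top2a holds 6 CCAAT matches and Hmgb2 holds 4. Promoters were matched by symbol for 3212 of the 4260 genes tested, of which 0.809% held the HNF4 motif, 0.467% the HNF1 motif, 1.77% the C/EBP motif and 39.7% a CCAAT box. A match is a run of letters, and no binding was measured here.

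Between 193902 and 215018 reads were assigned per liver library and between 385043 and 607972 per spleen library, so spleen values were the more finely resolved. A gene without a read in a library may still be worth up to 3 reads there, and such limits cover counting error only, since no molecular identifiers mark the reads and copies of 1 molecule may be counted more than once. The tissue labels could be checked against few of the usual markers. ALB, the main plasma protein of hepatocytes, was at 0, 0 and 2.26 FPKM in liver and at 0, 0 and 5.76 in spleen, and APOA1, APOA2 and TTR had no reads in either tissue. CD3E, CD74 and LYZ, markers of T cells, antigen-presenting cells and myeloid cells, had no reads in the 6 libraries. Other hepatocyte genes (HAO1, CPS1, FGA, FOXA1) were read in liver and had no reads in spleen. PAX5, EBF1, LEF1 and TLX1 were read in spleen and had no reads in liver. These genes go in the direction of the labels, but they were picked by their differences or with their values known. They are therefore no independent check of the labels. Spleen replicate 3 stood apart from the other spleen libraries by read counts. The chi-square of counts divided by its degrees of freedom was 5.93 between replicates 1 and 2, and 14.8 and 13.4 between replicate 3 and these. Correlations of log2(FPKM + 1) set it little apart, at 0.959 between replicates 1 and 2, and 0.957 and 0.953 between replicate 3 and these. Counts of B cell, T cell, myeloid, division and erythroid genes are given with and without spleen replicate 3 below. Without it, members higher in spleen went from 36 to 30 for chromatin regulators and from 33 to 30 for splicing genes. Members higher in liver went from 16 to 14 for hepatocyte factors, from 11 to 9 for lipid genes and from 8 to 6 for clock genes.

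Of 4260 genes tested, 468 (11%) were higher in liver and 717 (16.8%) were higher in spleen, at an adjusted p under 0.05 in limma and a difference of at least 1 in log2(FPKM + 1). With limma's voom on recovered reads 1046 genes were higher in liver and 667 in spleen, and 403 of the former had no reads in either tissue. Adding 1 FPKM makes these differences understate the change of low genes. The median difference over all genes tested was -0.07, given as liver minus spleen here and throughout. Tissues did not overlap for 1667 genes (39.1%), among them 435 of those higher in liver and 658 of those higher in spleen. The median was 1.92 among genes higher in liver and -1.69 among those higher in spleen. A difference of at least 4 was reached by 47 genes higher in liver and 34 higher in spleen. Among the genes higher in liver, 46 had no reads in the 3 spleen libraries. Among those higher in spleen, 155 had no reads in the 3 liver libraries. Calls made on fewer than 10 reads in the higher tissue numbered 27 for liver and 26 for spleen. In bulk tissue, fewer cells of a type and less RNA per cell cannot be told apart, which holds for every difference below.

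**Figure D1:**
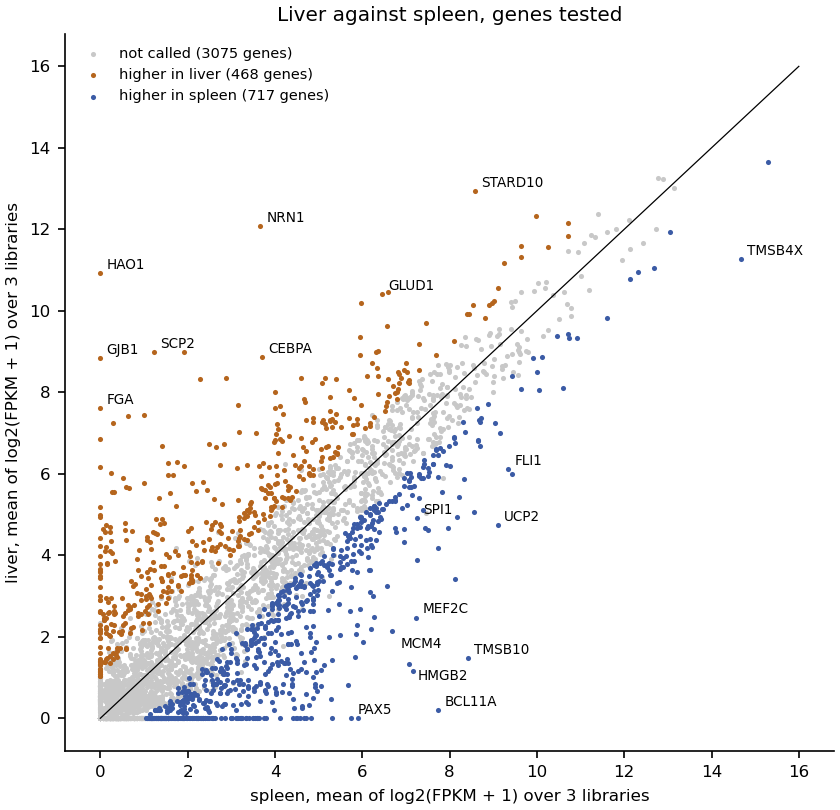
Each point is 1 of the 4260 genes tested, with the mean of log2(FPKM + 1) over 3 spleen libraries on the x axis and over 3 liver libraries on the y axis; the line marks equal values. The 468 genes higher in liver lie above the line, reaching HAO1 at 0 in spleen, and the 717 higher in spleen lie below it, reaching BCL11A near 0 in liver.

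The largest difference was that of HAO1, the peroxisomal enzyme that oxidises glycolate to glyoxylate. It stood at 1985, 1766 and 2063 FPKM in liver and had no reads in spleen, at least 553-fold higher against a floor of 3 reads per spleen library (log2 difference 10.92 ± 0.72 SE, limma adjusted p = 2.86e-10). GJB1, which forms the gap junctions between hepatocytes, was at 481, 483 and 400 FPKM in liver, again without a spleen read (8.83 ± 0.43 SE, adjusted p = 6.25e-12 in limma). NRN1, a membrane-anchored protein named for its effect on neurites, was at 4161, 4879 and 4006 FPKM in liver against 12, 28.7 and 4.25 in spleen (8.42 ± 0.46). In each of these genes every liver library lay above every spleen library, because only genes without overlap were ranked here.

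The other genes with the 12 largest differences towards liver were mostly enzymes and carriers. SCP2, which carries sterols and fatty acids and holds a peroxisomal thiolase, was at 362, 668 and 536 FPKM in liver and at 0.913, 3.72 and 0.393 in spleen. DGAT2, which makes triglycerides, was at 469, 558 and 501 FPKM against 3.07, 2.09 and 3.30. Both were above 300 FPKM in liver, with differences of 7.77 ± 0.65 and 7.07 ± 0.27 SE on the log2 scale. PANK1, which starts coenzyme A synthesis, was at 151, 193 and 179 FPKM against 0.580, 1.05 and 1.5. ALDH6A1, which acts in valine breakdown, was at 302, 347 and 309 FPKM against 2.72, 10.2 and 1.75. KCNN2, a calcium-activated potassium channel, was at 173, 199 and 145 FPKM against 1.5, 0.510 and 0. FOXQ1, a forkhead factor, differed among the liver libraries themselves, at 39.6, 31.5 and 283 FPKM with no spleen reads. Its log2 difference was 6.17 ± 0.62 SE with all liver libraries and 5.18 without liver replicate 3, the high one.

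**Figure D2:**
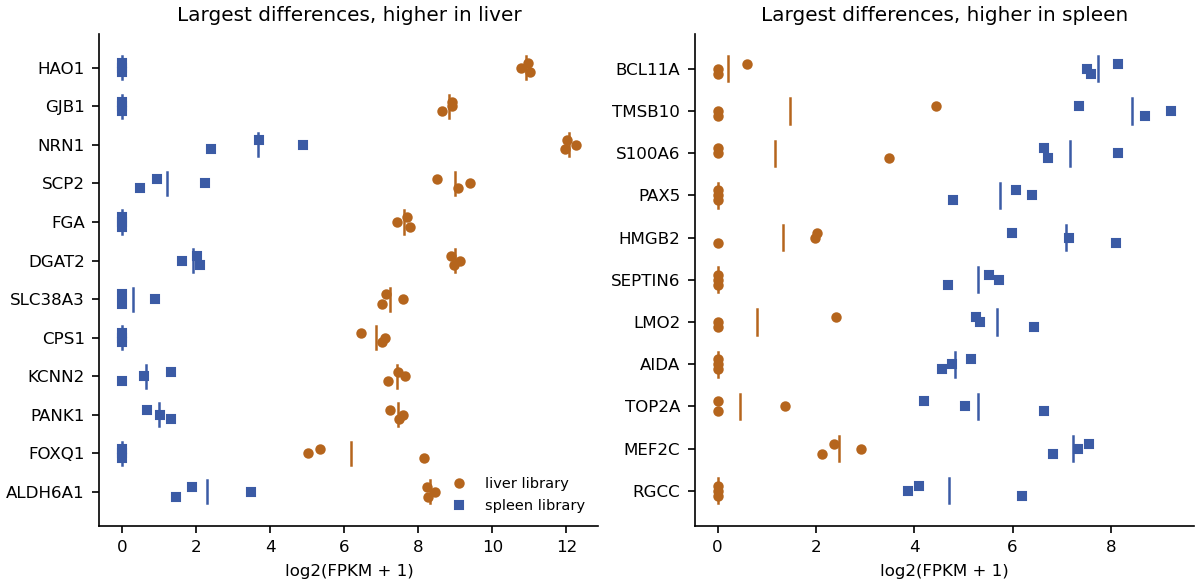
Each point is 1 library (circles liver, squares spleen) and each short line is the tissue mean of log2(FPKM + 1), for the genes with the largest differences that had no overlap between tissues, 12 higher in liver and 11 higher in spleen. HAO1, GJB1 and FGA sit at 0 in all spleen libraries, while PAX5, SEPTIN6, AIDA and RGCC sit at 0 in all liver libraries; FOXQ1 and TOP2A spread widely within the higher tissue.

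Enzymes of nitrogen and amino acid metabolism formed the group with the highest share of members higher in liver. Of 66 genes listed 28 were in the table, 18 were tested and 16 were higher in liver, with none higher in spleen, against the 11% of all genes tested. The median difference of the 18 was 4.10, beside -0.07 over all genes. Genes can enter the test through liver libraries alone, so this share describes the tested members and not the 66. Summed over the members, liver held 4536, 4395 and 4502 FPKM and spleen 123, 137 and 101, so the liver libraries were close to each other and did not overlap with spleen.

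Within that group, the urea cycle was represented by CPS1, which makes carbamoyl phosphate from ammonia, and ASS1, which makes argininosuccinate. CPS1 was at 87.3, 136 and 129 FPKM in liver without a spleen read (log2 difference 6.86 ± 0.20 SE, limma adjusted p = 2.83e-15). ASS1 was at 26.7, 77.8 and 59.9 FPKM in liver and at 0, 2.41 and 0 in spleen. Further members act on glutamine and glutamate. SLC38A3, a glutamine transporter, was at 139, 191 and 130 FPKM in liver and was read in 1 spleen library, at 0.840. GLUD1, glutamate dehydrogenase, was at 1593, 1319 and 1197 FPKM against 97.3, 88.6 and 75.7 (3.96 ± 0.17), and it shares reads with its near-identical copy GLUD2, so its level is uncertain. GLS2, the glutaminase of liver, was at 56.0, 83.4 and 42.2 FPKM in liver and had reads in spleen replicate 3 only, at 1.92.

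AHCY, BHMT and SARDH, which act in methionine and one-carbon metabolism, were also among the 16. AHCY, which splits S-adenosylhomocysteine, was at 289, 311 and 392 FPKM in liver and 3.36, 10.8 and 6.51 in spleen. BHMT, which remethylates homocysteine with betaine, was at 17.4, 22.6 and 73.1 FPKM and SARDH, which oxidises sarcosine, at 10.9, 41.4 and 18.8, neither with a spleen read. For the breakdown of branched-chain amino acids and propionate, the 2 subunits of propionyl-CoA carboxylase stood out. PCCB was at 216, 296 and 265 FPKM against 14.7, 21.3 and 11, and PCCA at 52.9, 49.8 and 58.2 against 5.28, 3.29 and 1.89. MMUT, a later enzyme of that route, was at 27.3, 28.9 and 24.1 FPKM against 0.496, 3.37 and 2.13. In all 3 genes every liver library lay above every spleen library. SLC25A13 and GOT1 were the members tested that were not called. SLC25A13 was read in liver replicate 2 only, at 1.33 FPKM, and GOT1 had no reads in either tissue.

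Of lipid, peroxisome and bile acid genes 11 of 17 tested members (64.7%) were higher in liver, beside 11% of all genes tested. None was higher in spleen (71 listed, 32 in the table, median difference 1.49). ACAT1, a mitochondrial thiolase of ketone and isoleucine metabolism, was at 29.9, 70.1 and 48.4 FPKM in liver and 3.80, 1.48 and 7.02 in spleen (log2 difference 3.38 ± 0.53 SE). ABCA1, which loads cholesterol onto apolipoproteins, was at 23.0, 29.9 and 29.2 FPKM against 5.32, 4.49 and 3.32. Fatty acid synthesis was represented by ACACA, at 10.5, 11 and 10.4 FPKM against 1.00, 2.05 and 3.02, and by ACLY, at 29.4, 52.1 and 40.8 against 18.5, 21.7 and 18.1. The ACLY difference of 1.00 lay at the threshold and was not called without liver replicate 2 (0.81), liver replicate 3 (0.98), spleen replicate 1 (0.97) or spleen replicate 3 (0.95). ACLY was not the only member whose call was lost when a single library was left out. The 11 ranged from 7 to 14 over the alternative settings. HADHB, a subunit of the mitochondrial trifunctional protein, was not called, at 0, 63.6 and 9.10 FPKM in liver and 0, 5.73 and 3.63 in spleen.

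Glucose and glycogen genes were few in the table, 9 of 33 listed. Of the 5 tested 4 (80.0%) were higher in liver, beside 11% of all genes tested. PC, pyruvate carboxylase at the start of gluconeogenesis, was at 24, 32.8 and 17.0 FPKM in liver and at 0, 0.815 and 0.774 in spleen (4.07 ± 0.38 SE, limma adjusted p = 3.84e-08). PYGL, the glycogen phosphorylase of liver, was at 22.2, 15 and 3.69 FPKM against 2.05, 0.928 and 0.588. UGP2, which makes UDP-glucose for glycogen, was at 3.39, 14.8 and 5.47 FPKM against 0.676, 0 and 0. PKM, pyruvate kinase of non-hepatic tissues, was higher in spleen, at 29.6, 29.4 and 9.31 FPKM against 2.85, 0 and 1.54 (-3.31 ± 0.42), and was chosen after its values were seen. Of 57 xenobiotic genes only 2 were tested. CYP2E1 was called on 1 read in each liver library and none in spleen, and CES1 had no reads.

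Plasma proteins were poorly covered, since 34 of 66 listed genes were in the table, 21 of these had no reads in either tissue and 9 were tested. Of these, 4 (44.4%) were higher in liver, beside 11% of all genes tested, and none in spleen. FGA, the alpha chain of fibrinogen, was at 205, 170 and 217 FPKM in liver without a spleen read, at least 126-fold higher against the 3-read floor (log2 difference 7.62 ± 0.42 SE, limma adjusted p = 2.54e-11). IGF1, the growth factor that liver releases into blood, was at 73.9, 87.2 and 69.3 FPKM against 1.69, 2.51 and 1.72. PLG, plasminogen, was at 6.74, 14.2 and 6.05 FPKM and SERPINC1, antithrombin, at 9.85, 12 and 2.66, both with no spleen read. FGA made up most of the group's sum in liver, which was 297, 283 and 301 FPKM against 1.69, 2.51 and 10.9 in spleen. The other 5 tested members, ALB, APOA1, APOA2, TTR and HP, were not called, so the 4 calls do not speak for plasma proteins as a class on this table.

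Transcription factors and receptors of hepatocytes were better covered, with 27 of 45 listed genes in the table and 22 tested. Of these 16 (72.7%) were higher in liver, beside 11% of all genes tested, and none in spleen, with a median difference of 2.10. CEBPA, a leucine zipper factor of hepatocytes and fat cells, was at 427, 536 and 437 FPKM in liver and 15.3, 21.7 and 5.0 in spleen (5.16 ± 0.47 SE, limma adjusted p = 3.19e-08). FOXA1 and FOXA2 are forkhead factors that open chromatin at liver genes. FOXA1 was at 24.5, 29.3 and 60.1 FPKM in liver without a spleen read, and FOXA2 at 53.9, 45.6 and 63.7 against 0.694, 3.77 and 0. PROX1, a homeobox factor of hepatocytes and lymphatic endothelium, was at 106, 46.5 and 93.6 FPKM against 2.92, 2.91 and 1.51. ONECUT1, also named HNF6, was at 11, 38.5 and 35.6 FPKM against 0, 0.597 and 0. CEBPB, a partner of CEBPA, was at 168, 170 and 193 FPKM against 13.6, 19.7 and 18.7 (3.29 ± 0.37). All of these kept the 2 tissues apart in every library.

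The nuclear factor I genes and nuclear receptors of the same group showed smaller differences. NFIB was at 125, 127 and 125 FPKM in liver and 11.8, 19.0 and 5.49 in spleen (3.42 ± 0.26 SE), NFIX differed by 2.06 ± 0.13 and NFIA by 1.85 ± 0.23. THRB, the thyroid hormone receptor of liver, was at 8.65, 8.41 and 2.33 FPKM against 0, 0.939 and 0. PPARGC1A and LHX2 were called on 17 and 2 liver reads, and each call ended when any of several single libraries was left out, PPARGC1A falling to 0.61 without liver replicate 2 and LHX2 to 0.77 without liver replicate 1. ESRRA, a nuclear receptor of energy metabolism, passed the adjusted p in limma (0.0078) but missed the minimum difference, at 0.96.

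Energy metabolism beyond these lists moved less uniformly. Of 16 nuclear oxidative phosphorylation genes tested 4 (25.0%) were higher in liver, beside 11% of all genes tested, and none in spleen. The median difference of the 16 was 0.52. ATP5MC3, a ring subunit of ATP synthase, was at 5320, 5491 and 4672 FPKM in liver and 875, 1164 and 1025 in spleen (2.34 ± 0.12 SE, limma adjusted p = 9.35e-12). ATP5F1B, the catalytic subunit, was at 1072, 1264 and 1079 FPKM against 285, 378 and 471, and NDUFS1, of complex I, at 40.2, 61.2 and 47.7 against 13, 9.48 and 13.7. Mitochondrially encoded genes could not be read on this table, since none of the 11 tested was called and their sum was 6.99, 5.93 and 15.2 FPKM in liver against 1.05, 1.88 and 35.6 in spleen, on 1 to 19 reads per library.

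On the spleen side the largest difference was that of BCL11A, a zinc finger repressor needed for B cell development that also silences fetal globin. It was at 281, 181 and 192 FPKM in spleen and was read once in liver, at 0.524 FPKM in replicate 1 (log2 difference -7.54 ± 0.35 SE, limma adjusted p = 2.54e-12). TMSB10, a thymosin that binds actin monomers and has near-identical copies, was at 162, 597 and 414 FPKM in spleen against 20.8, 0 and 0 in liver, on 2 liver reads. S100A6, a calcium-binding protein, was at 98.0, 282 and 104 FPKM against 0, 0 and 10.2. Relative to their level, the spleen values of these 3 genes spread more than the liver values of HAO1, GJB1 and NRN1. No liver library reached a spleen library in BCL11A, TMSB10 or S100A6, which the choice of the largest differences required.

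Other genes among the largest differences towards spleen had few or no liver reads. SEPTIN6, a cytoskeletal GTPase, was at 44.8, 51.8 and 24.6 FPKM in spleen with no liver read, at least 15.9-fold higher against the 3-read floor. LMO2, which bridges GATA and SCL factors in blood progenitors and endothelium, was at 37.0, 39.3 and 86.0 FPKM against 4.34, 0 and 0. Floors in liver are coarse at this depth, and at-least folds of the spleen genes are correspondingly low. RGCC, which binds cyclin-dependent kinases, was at 16, 13.6 and 72.1 FPKM in spleen, on 55 reads in all. AIDA, which binds axin, was at 34.7, 26.2 and 22.7 FPKM in spleen. Neither was read in liver.

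Of 10 B cell genes tested 8 were higher in spleen and none in liver, beside the 16.8% of all genes tested. The list held 50 genes, 16 in the table, and the median difference of the 10 was -3.98. Members can enter the test through spleen libraries alone, here and in the lists that follow, so the count describes the tested members and not the 50. PAX5, which commits cells to the B lineage, was at 66.5, 82.7 and 26.8 FPKM in spleen without a liver read (-5.75 ± 0.41 SE, limma adjusted p = 8.86e-10). EBF1, its partner in commitment, was at 10.2, 5.16 and 4.56 FPKM in spleen on 504 reads and had none in liver. POU2F2, the octamer factor of B cells, was at 52.6, 31.6 and 20 FPKM against 0, 0.471 and 2.61. BTK, the kinase behind the B cell receptor, was at 26.2, 22.1 and 14.5 FPKM against 0, 0 and 1.69. MEF2C, which responds to B cell receptor signals and also acts in muscle and neurons, was at 187, 160 and 112 FPKM against 4.16, 6.57 and 3.36. In each of these 5 genes the lowest spleen value was that of replicate 3. BCL11A, the member with the largest difference, was lowest in replicate 2. The group's sum was 746, 587 and 431 FPKM in spleen replicates 1 to 3 against 28.6, 58.1 and 47.0 in liver. The count was also 8 without spleen replicate 3. XBP1, a factor of plasma cells and of secretory cells in general, was not called, at 19.8, 45.7 and 34.6 FPKM in liver and 18.8, 20.1 and 9.35 in spleen.

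T and NK cell genes gave 7 of 12 tested members (58.3%) higher in spleen and 1 (8.33%) higher in liver (58 listed, 19 in the table, median difference -1.98). Over all genes tested the shares were 16.8% and 11%. TCF7, a factor of naive and early T cells, was at 20.4, 23.2 and 14.7 FPKM in spleen and 0.658, 0.640 and 0.355 in liver (-3.70 ± 0.28 SE, limma adjusted p = 2.67e-09). LEF1, its relative, was at 12.9, 17.5 and 5.76 FPKM in spleen, and BCL11B, which secures the T lineage, at 11.2, 10 and 5.21. SATB1, a chromatin organiser of thymocytes, was at 11, 7.27 and 4.18 FPKM. The last 3 had no liver read. FYN, a Src family kinase of the T cell receptor that other cells also use, was at 56.0, 83.2 and 47.9 FPKM against 16, 3.89 and 2.16. The list's sum was again lowest in spleen replicate 3, at 286, 298 and 176 FPKM, with liver at 58.9, 34.9 and 53.3, and the count was 7 without that library.

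Myeloid genes did not separate the tissues in the same way. Of 10 tested, 3 were higher in spleen and 1 in liver, with a median difference of -0.16 (64 listed, 16 in the table). Among all genes tested, 16.8% were higher in spleen and 11% in liver. SPI1, also named PU.1, which drives macrophages and is used in B cells, was at 242, 149 and 99.0 FPKM in spleen and 24.8, 49.7 and 20 in liver (-2.35 ± 0.45 SE, limma adjusted p = 0.000336). SLC40A1, the iron exporter of red pulp macrophages and hepatocytes, was at 9.0, 13 and 5.92 FPKM in spleen against 2.65, 11.6 and 0 in liver, so the tissues overlapped. It fell to -0.54 without liver replicate 3, and the list's count of members higher in spleen was 1 without liver replicate 1 or liver replicate 3 and 2 without spleen replicate 3. ID2, an inhibitor of helix-loop-helix factors made in many cell types, was higher in liver, at 3683, 2048 and 3827 FPKM against 1163, 864 and 490, and it made up most of the list's sum in both tissues. MAF, a factor of macrophages and T cells, was not called, at 15.5, 10.7 and 18.1 FPKM in liver and 23.1, 16.8 and 15.6 in spleen.

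Transcription factors and signalling genes of blood cells in general gave 12 of 22 tested (54.5%) higher in spleen and 1 (4.55%) higher in liver. The shares over all genes tested were 16.8% and 11% (71 listed, 37 in the table, median difference of the 22 -1.38). IKZF1, also named Ikaros, was at 30.1, 26.7 and 34.0 FPKM in spleen and 0.255, 0.495 and 1.10 in liver (-4.30 ± 0.28 SE, limma adjusted p = 2.65e-10). PRKCB, the protein kinase C of B cells, was at 28.1, 29.8 and 10.3 FPKM in spleen and was read once in liver. BCL2, which keeps lymphocytes alive, was at 7.74, 8.27 and 5.4 FPKM in spleen with no liver read. ETS1, an ETS factor of lymphocytes, was at 100, 79.2 and 48.6 FPKM against 3.16, 5.37 and 2.55. LCP1, which bundles actin in leukocytes, was at 39.3, 45.1 and 28.1 FPKM against 2.56, 2.49 and 4.13. STAT3, which relays interleukin 6 signals and is used by hepatocytes, was the member higher in liver, at 30.1, 37.4 and 11.1 FPKM against 11.6, 10.7 and 4.20, and it was not called without liver replicate 1 (1.24), liver replicate 2 (1.08) or spleen replicate 3 (1.00).

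Genes of cell division were higher in spleen in 13 of 16 tested members (81.2%), beside 16.8% of all genes tested. None was higher in liver, and the median difference was -2.57. The list held 101 genes, 48 in the table, of which 37 had no reads in liver and 16 none in spleen. TOP2A, the topoisomerase of dividing cells, was at 17.4, 31.7 and 98.0 FPKM in spleen and 0, 1.6 and 0 in liver (-4.83 ± 0.58 SE, limma adjusted p = 1.43e-06). HMGB2, a chromatin protein of dividing cells, was at 62.2, 141 and 274 FPKM against 3.05, 2.97 and 0. MCM4, of the replicative helicase, was at 76.8, 74.0 and 185 FPKM against 2.29, 4.45 and 3.70, and PRIM1, of the primase, at 65.8, 54.8 and 114 against 13.4, 6.54 and 3.62. Every one of these was highest in spleen replicate 3. EZH2, the histone methyltransferase of Polycomb, was at 24.2, 22.6 and 71.5 FPKM against 3.78, 0.735 and 0.816. LMNB1, of the nuclear lamina, was at 13.9, 14.4 and 40.4 FPKM against 1.66, 0 and 1.78. PLK4, which starts centriole duplication, was at 3.10, 7.23 and 22.9 FPKM with no liver read.

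The summed level of division genes was 318, 427 and 985 FPKM in spleen replicates 1 to 3 and 41.8, 38.3 and 21.1 in liver, so the tissues did not overlap even without the high library. Without spleen replicate 3 the number of members higher in spleen was again 13. TOP2A was then lower in liver by a log2 difference of -4.16, HMGB2 by -5.23 and MCM4 by -4.12. PLK1, on 5 spleen reads, was no longer called (-0.57), and CCND1 was called instead (-1.48). CDC20, at 0, 0 and 23.9 FPKM in spleen, was read in replicate 3 alone and was not called. Of the 13 members higher in spleen 9 had a promoter in the RefSeq table, and 8 of these (88.9%) held a CCAAT box in the 250 bases before the start, beside 39.7% of all genes tested with a promoter and 37.5% of the 27025 genes of the table. The E2F motif TTTNGCGC was in 1 of the 9, POLA1, beside 2.37% of genes tested. Of 24 promoters found for metabolic and plasma protein genes higher in liver, 10 (41.7%) held CCAAT, 1 the HNF4 motif (HAO1), 1 the HNF1 motif and 1 the C/EBP motif (both FGA). No promoter of the 7 found for B cell genes higher in spleen held the PU.1 motif GAGGAAGT or the GATA motif AGATAA, which 2.21% and 6.04% of genes tested held, and which says only that these letters are not in these windows.

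Among erythroid and megakaryocyte genes the calls rested in part on the spleen library that stood apart. Of 9 tested, 4 (44.4%) were higher in spleen, beside 16.8% of all genes tested, and none in liver (55 listed, 16 in the table, median difference -1.16). The count was 2 without spleen replicate 3. TFRC, the transferrin receptor that erythroid precursors carry in large numbers, was at 57.6, 63.6 and 221 FPKM in spleen and 3.88, 14.5 and 10.5 in liver (-3.31 ± 0.39 SE, limma adjusted p = 1.17e-06), and -2.69 without replicate 3. GATA2, a factor of blood progenitors and mast cells, was at 4.55, 0.687 and 5.66 FPKM in spleen on 23 reads with none in liver. XPO7, a nuclear exporter of maturing red cells, was at 77.3, 51.4 and 195 FPKM against 28.3, 53.2 and 34.8 in liver, so the tissues overlapped, and it fell to -0.74 without replicate 3. ADD2, of the red cell membrane skeleton, fell from -1.16 to -0.94. The list's sum was 188, 140 and 507 FPKM in spleen and 72.9, 99.4 and 66.1 in liver. Division and erythroid sums were thus both highest in spleen replicate 3, where B and T cell sums were lowest, and whether cell makeup lies behind this was not tested.

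**Figure D3:**
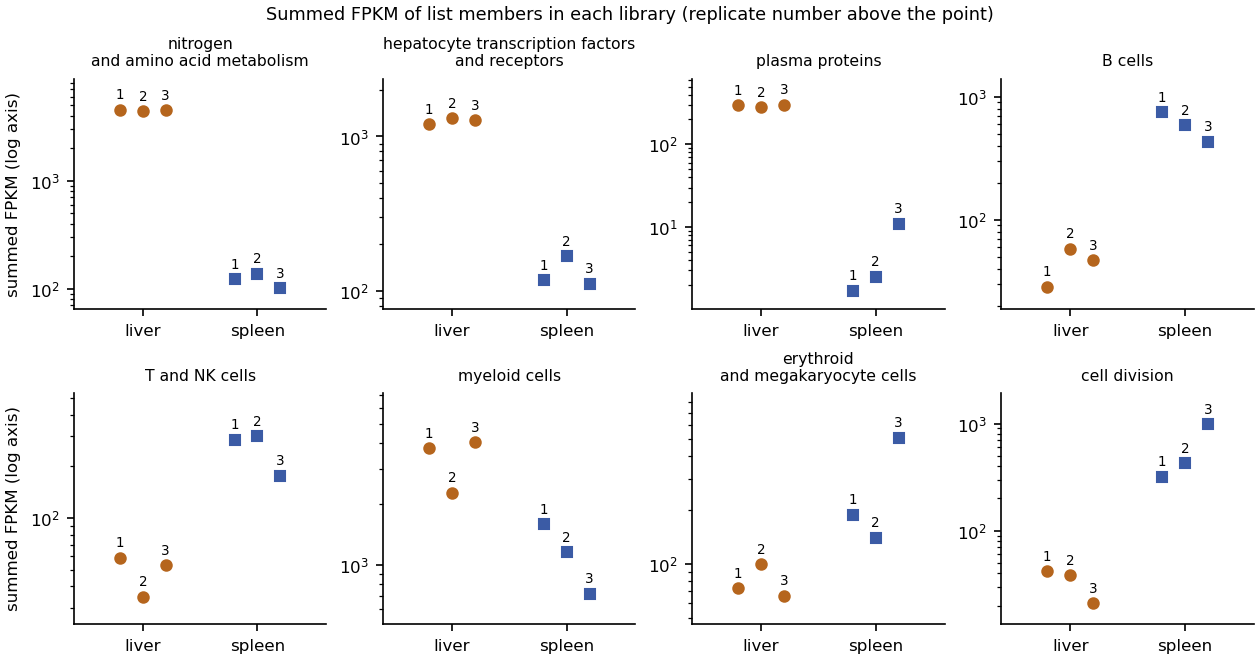
Each point is the summed FPKM of a list's members in 1 library, on a log axis, with the replicate number above it (circles liver, squares spleen). Nitrogen metabolism, plasma protein and hepatocyte transcription factor sums are higher in all liver libraries, B cell, T cell, erythroid and division sums in all spleen libraries, and spleen replicate 3 is lowest for B cells (431) and highest for division genes (985); the myeloid sum is higher in liver, where ID2 carries it.

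Genes of splenic stroma and of the patterning of the spleen gave 7 of 21 tested (33.3%) higher in spleen and 1 (4.76%) higher in liver. Over all genes tested these shares were 16.8% and 11%, and the median difference of the 21 was -0.56. TLX1, the homeobox gene without which mice form no spleen, was at 9.21, 13.5 and 12.2 FPKM in spleen on 47 reads and had none in liver (-3.64 ± 0.14 SE, limma adjusted p = 2.06e-13). HOXA5 was at 13.7, 26.4 and 19.7 FPKM against 11.5, 0 and 0, and TCF4, a helix-loop-helix factor, at 17.0, 15 and 15.1 against 2.68, 1.74 and 1.45. WT1, a factor of mesothelium and stroma, was called on 11 spleen reads, at 2.14, 1.45 and 2.30 FPKM. TLX1, HOXA5, TCF4 and WT1 were called with any single library of the 6 left out. HOXB4, HOXA7 and MEIS1 were not, since HOXB4 fell to -0.84 and MEIS1 to -0.93 without liver replicate 1, and HOXA7 to -0.77 without spleen replicate 1. The count of members higher in spleen was then 4. CXCL12, a chemokine of stromal and endothelial cells, was higher in liver, at 6.35, 7.94 and 5.87 FPKM against 1.09, 2.96 and 0.312, and was not called without spleen replicate 3 (1.42).

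Outside the cell type lists, genes of splicing and of chromatin leaned to spleen. Of 75 tested splicing and RNA-binding genes 33 were higher in spleen and none in liver (82 listed, 80 in the table, median difference -0.97), beside the 16.8% of all genes tested. MBNL1, a splicing regulator, was at 248, 271 and 278 FPKM in liver and 1168, 1028 and 980 in spleen (-1.99 ± 0.10 SE, limma adjusted p = 6.53e-12). SRSF7, an SR protein, was at 108, 127 and 152 FPKM against 682, 659 and 410, and HNRNPA1, which has near-identical copies, at 58.8, 50.9 and 63.4 against 269, 332 and 359. Abundant members such as DDX5 and HNRNPK differed less. DDX5, an RNA helicase, was at 3897, 3942 and 4611 FPKM against 7589, 7730 and 5221, and HNRNPK at 1908, 1902 and 1729 against 1930, 2006 and 2240, and neither reached the minimum difference. Summed, the list came to 18724, 20090 and 20301 FPKM in liver and 33803, 34829 and 35092 in spleen.

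Of 81 tested chromatin regulators 36 (44.4%) were higher in spleen, beside 16.8% of all genes tested, and 1 in liver. The median difference was -1.03 (108 listed, 98 in the table). The 36 ranged from 19 to 45 over the alternative settings and were 30 without spleen replicate 3. ARID1A, of the SWI/SNF remodeller, was at 32.8, 28.7 and 39.6 FPKM in liver and 182, 157 and 158 in spleen (-2.27 ± 0.18 SE, limma adjusted p = 3.36e-09). CTCF, the insulator protein, was at 117, 47.8 and 68.9 FPKM against 225, 250 and 251. NIPBL, which loads cohesin, was at 48.8, 48.1 and 53.7 FPKM against 150, 130 and 123. SMARCA2, an ATPase of SWI/SNF, was the member higher in liver, at 20.5, 50.8 and 25.9 FPKM against 9.02, 14.2 and 6.31 (1.58 ± 0.31). The list shares HMGB2, EZH2 and SATB1 with the division and T cell lists.

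**Figure D4:**
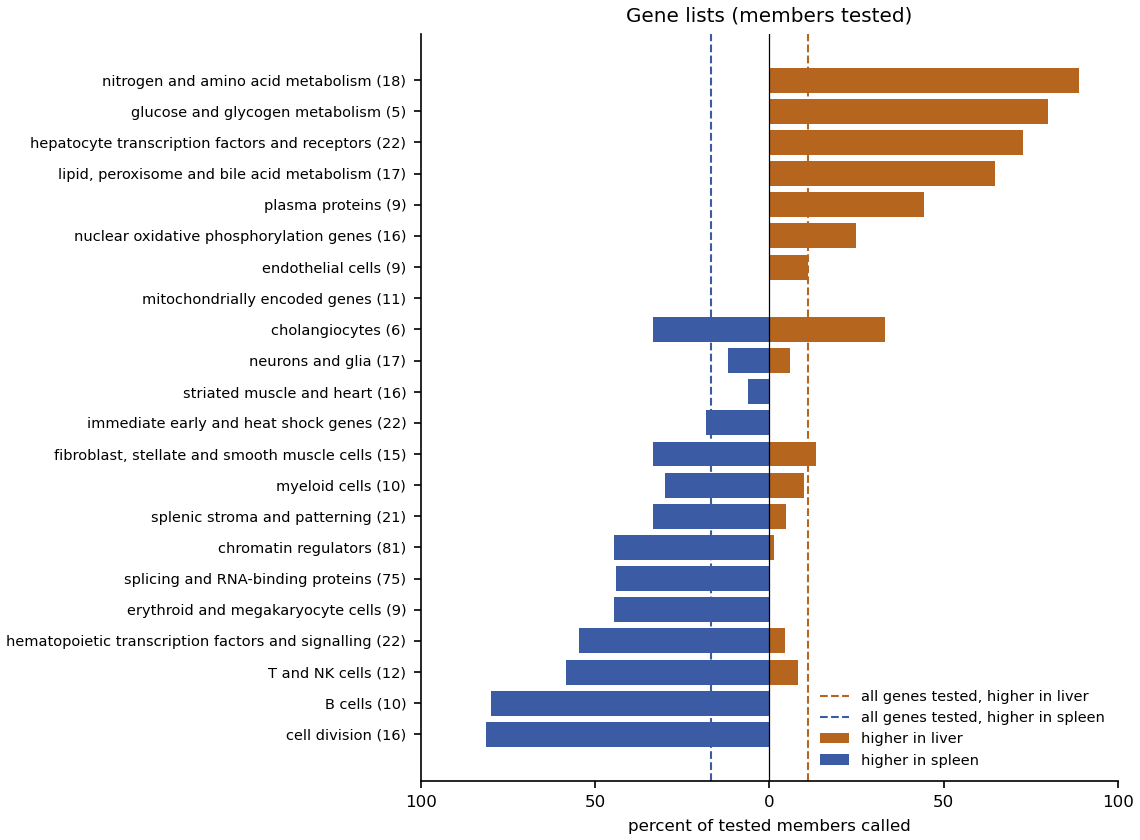
Bars give the percentage of tested members of each list that were higher in liver (right) or in spleen (left), with the number tested in parentheses; dashed lines mark the same percentages over all genes tested, 11% and 16.8%. Amino acid, glucose, hepatocyte factor and lipid lists reach farthest right, division, B cell and T cell lists farthest left; the xenobiotic and pancreas lists, with 2 genes tested each, are not drawn.

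Markers of other cells that either piece of tissue could hold are set beside the shares over all genes tested, 11% higher in liver and 16.8% higher in spleen. Among 9 endothelial genes tested 1, BMP2, was higher in liver and none in spleen, and BMP2 was not called without liver replicate 3 (1.40) or spleen replicate 3 (1.70). Among 15 genes of fibroblasts, stellate and smooth muscle cells 2 (13.3%) were higher in liver and 5 (33.3%) in spleen. The former were RELN and LHX2, and LHX2, on 2 liver reads, was not called without liver replicate 1, liver replicate 2 or any 1 of the spleen libraries, which left 1. RELN, a secreted protein of hepatic stellate cells and of neurons, was at 6.13, 5.96 and 3.08 FPKM in liver and was read once in spleen (2.49 ± 0.30 SE). COL1A1, of collagen I, was at 5.47, 8.31 and 3.88 FPKM in spleen against 2.42, 0 and 0.869, and TPM1, a tropomyosin, at 80.6, 80.4 and 90.9 against 22.7, 25.0 and 45.6. Of 6 cholangiocyte genes tested 2 (33.3%) were higher in liver, ONECUT1 and SOX9, and 2 (33.3%) in spleen, SOX4 and AQP1. With 1 library left out at a time SOX9 was called only without liver replicate 1, and AQP1 was not called without spleen replicate 2 (-1.10) or spleen replicate 3 (-1.13), which leaves 1 in each direction. Of 17 neuronal and glial genes tested 1 was higher in liver and 2 in spleen, and 1 of 16 striated muscle genes, DES, was higher in spleen on 5 reads. Immediate early and heat shock genes, which respond to handling, gave 4 of 22 higher in spleen (EGR3, IER5, KLF4 and DUSP5) and none in liver, with sums of 283, 316 and 369 FPKM in liver and 275, 330 and 386 in spleen, so the sums overlapped. Their part in the differences above was not tested.

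SENCR was at 7.37, 17.9 and 15.9 FPKM in liver and 42.7, 14.0 and 17.7 in spleen, on only 11 and 50 reads. The tissues overlapped and the difference was not called (-0.73 ± 0.59 SE, limma adjusted p = 0.400). FLI1, an ETS factor of blood and endothelial cells, was at 117, 30.1 and 89.9 FPKM in liver and 1095, 484 and 509 in spleen, with no overlap (-3.22 ± 0.55, adjusted p = 9.45e-05 in limma). Whether counting used strand is not stated in the labels, so SENCR and FLI1 reads from their shared stretch cannot be told apart, and FLI1 reads from the mouse gene and from any copy on the transgene cannot be told apart.

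Across the 6 tissues left out of the comparison, the genes higher in liver and those higher in spleen had different nearest neighbours. Of 465 genes higher in liver with reads elsewhere, 179 (38.5%) had their highest other mean in kidney, beside 19.8% of all genes tested. Of 716 genes higher in spleen 237 (33.1%) had theirs in lung, beside 19.7%. Liver had the highest mean of all 8 tissues for 263 of its 468 genes (56.2%), beside 13.1% of all genes tested, and spleen for 362 of its 717 (50.5%), beside 16.7%. The call itself fixes part of these shares. ALDH6A1 is an example shared with kidney, where its mean was 456 FPKM against 319 in liver, and CPS1, at 0.159 FPKM in kidney, is an example that was not shared. Among spleen genes, PAX5 came next in lung, at 12.1 FPKM, and TLX1 was at 0 in aorta and every other tissue but spleen. These are descriptions of means over 3 libraries per tissue, with no test.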

How the data were processed

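Total RNA of mouse tissues was sequenced in 24 libraries, 8 tissues with 3 each, of which 3 liver and 3 spleen libraries are compared. The authors deposited one table of FPKM values per gene and library. The submitters' processing notes name fastp, HISAT2, HTSeq and the human build GRCh38.p13. Versions, the annotation and the strand setting are not stated there. Alignment of mouse reads to a human genome limits every value to the sequence the species share.

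Of 7493 genes, the 4260 that reached 1 FPKM in 3 or more of the 24 libraries were tested on log2(FPKM + 1) with limma 3.58.1 in R 4.3.3, using 8 tissue means, a mean-variance trend and Benjamini-Hochberg adjustment over all 4260; tests were two-sided. Calls needed an adjusted p under 0.05 together with a difference of 1 or more. The labels do not tie libraries to animals, so p-values measure the spread between libraries, which may be partly technical. FPKM steps returned whole reads for 100.0% of genes within a relative tolerance of 1e-06, which gave the read numbers and the floor of 3 reads. Intervals and floors cover counting error only. The limma fit was tested on simulated data.

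The comparison and the gene lists were chosen with earlier results of these data known, and 5 lists were added after their values were seen (clock, peroxisome, endoplasmic reticulum, actin and ribosomal proteins). Named genes were the 12 with the largest called difference in each direction, without overlap and with a mean of at least 10 FPKM in the higher tissue, each list's 3 most abundant tested members and 3 largest called differences in each direction, and SENCR and FLI1. Other genes named were chosen after their values were seen. Alternatives were other pseudocounts, filters, scalings, variance models, samples, a voom fit, thinned reads and each library left out. Promoters came from RefSeq (GRCm38.p6). Some genes are not reported here by name, though the counts and sums of their lists include them.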

Additional observations from a re-analysis of the deposited data

How the results depend on the processing

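Against 468 genes higher in liver and 717 higher in spleen, the limma voom fit on recovered reads gave 1046 and 667, so that 61.1% of its calls were higher in liver in place of 39.5%. Of the 1046 genes, 403 had no reads in either tissue and so differ by construction of that fit, and 458 of the 468 and 629 of the 717 were shared. A pseudocount of 5 gave 336 and 406. Leaving out 1 of the 6 libraries at a time gave 436 to 486 genes higher in liver and 653 to 672 higher in spleen. The remaining alternatives stayed within 1.5 times of both counts. Quantile normalization moved the median of all genes from -0.07 to 0.04 and voom to 0.3. Among 115 genes named by the rule, none of the 91 called changed the sign of its difference, and 69 of these were called in every setting that tested them. The difference of 9 genes that were not called changed sign in at least 1 setting. Under voom 15 ribosomal protein genes were higher in liver, where the limma fit on FPKM had none, and the cause was not tested. Liver libraries held the fewest reads, and thinning all libraries to 193902 reads gave 437 and 603 calls.

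Replicate numbers were not taken to pair libraries. Deviations of liver and spleen libraries with the same number correlated at 0.0273, 0.0732 and -0.0269, and the labels do not say what a number marks. With a replicate block 472 genes were higher in liver and 725 in spleen, and none of the 115 named genes changed its call.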

Other observations

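The 5 gene groups here were put together after values were seen, so their counts describe these libraries and support no group. Over all genes tested 11% were higher in liver and 16.8% in spleen. Clock genes and PAR bZIP factors, which keep and relay daily rhythm, gave 8 of 15 tested members higher in liver and none in spleen, with a median log2 difference of 1.34. NR1D1, a repressor of the clock, was at 935, 608 and 494 FPKM in liver and 77.0, 122 and 23.8 in spleen (3.40 ± 0.37 SE, limma adjusted p = 2.96e-07). HLF, a PAR bZIP factor, was at 22.2, 15.2 and 16 FPKM against 0, 0 and 0.283. The labels do not name the hour of collection. Peroxisome biogenesis and membrane genes gave 4 of 5 tested higher in liver. PEX13, of the import machinery, was at 116, 109 and 122 FPKM against 17.5, 17.4 and 14.3, and ABCD3, a fatty acid transporter, at 6.64, 31.2 and 35.8 against 0.883, 0 and 0.760. Genes of entry to and exit from the endoplasmic reticulum gave 12 of 24 higher in liver and 1, SEC11C, higher in spleen. SEC11C was not called without liver replicate 2 (limma adjusted p = 0.0745), liver replicate 3 (0.0659) or spleen replicate 2 (0.135), which leaves none. SRPRA, of the signal recognition particle receptor, was at 313, 342 and 352 FPKM against 65.3, 87.1 and 55.2, and SAR1B, which starts the coat that exports lipoproteins, at 23.1, 28.0 and 27.2 against 1.44, 1.57 and 1.74.

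Actin genes split by member, with 20 of 49 tested (40.8%) higher in spleen and 4 (8.16%) higher in liver. MSN, which ties actin to the membrane of leukocytes, was at 342, 247 and 186 FPKM in spleen and 32.2, 17.2 and 26.9 in liver (-3.29 ± 0.24 SE, limma adjusted p = 9.48e-10). Its paralogue RDX ran the other way, at 41.3, 27.9 and 50.2 FPKM in spleen and 163, 157 and 166 in liver (2.04 ± 0.25). NCKAP1L, the WAVE complex subunit of blood cells, was at 37.4, 38.8 and 17.3 FPKM in spleen against 0, 0.515 and 2.28. TMSB4X, which binds actin monomers and has near-identical copies, was at 36604, 30902 and 15597 FPKM in spleen against 3623, 2124 and 1948. Of 44 ribosomal protein genes tested 10 (22.7%) were higher in spleen, near the 16.8% of all genes tested, and none in liver. Their many near-identical copies make single values uncertain.

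STARD10, a lipid transfer protein, was at 7710, 7894 and 7906 FPKM in liver and 249, 369 and 611 in spleen. UCP2, a mitochondrial carrier, was at 508, 507 and 635 FPKM in spleen and 25.7, 20.8 and 32.3 in liver.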
